A study of Mus musculus with 24 samples.

Results

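Ribosomal protein genes encode the protein parts of the cytoplasmic ribosome, the machine that translates mRNA. Members were the protein-coding genes whose mouse symbol is Rpl or Rps followed by a number and at most one of the letters a, x or l, together with Rpsa, Rplp0, Rplp1 and Rplp2. The rule found 81 of the 27080 genes counted, 50 of the large and 31 of the small subunit. It named 72 autosomal genes for standard subunits, 4 X-linked ones (Rpl10, Rpl36a, Rpl39 and Rps4x) and 5 paralogs whose symbol ends in l (Rpl3l, Rpl10l, Rpl32l, Rpl39l and Rps27l). Another 2 symbols, Rps4l and Rpl6l, fit the pattern but are pseudogenes and were left out. Fau, Rps3a1 and Rack1 also make ribosomal proteins under names that the rule does not take.

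Growing cells make the ribosomal proteins in near equal amounts, since a ribosome holds one copy of nearly every one of them. Their promoters are commonly taken as a reference for constant activity, which equal amounts alone do not show. H3K4me3, trimethylation of lysine 4 of histone H3, marks the start of active and poised genes, and H3K27me3 is the repressive mark of Polycomb complexes. In female cells one of the X chromosomes is silenced, and its chromatin carries H3K27me3.

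Cells of the basal layer of the mammary gland, the layer of contractile myoepithelial cells and of cells with stem cell activity, were sorted from untreated C57BL/6 female mice. The sort used Lgr5, a receptor that strengthens Wnt signalling, and Tspan8, a membrane tetraspanin, and gave the subpopulations Lgr5+Tspan8hi, Lgr5+Tspan8-, Lgr5-Tspan8hi and Lgr5-Tspan8-. No genotype beyond the strain and no age is given in the labels, nor how Lgr5 was detected. Chromatin immunoprecipitation sequencing with an antibody to each mark gave 2 libraries per subpopulation and mark, 16 in all, and 8 input samples were not analysed here. The labels do not say that replicates came from separate mice, so the p-values rest on the spread between libraries alone, and that spread may be technical.

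Total counts ran from 1472251 to 4740371 for H3K4me3 and from 2639862 to 6972189 for H3K27me3. Libraries of Tspan8hi cells left more genes without a read than their totals would give. The share of the total at which independent reads leave as many genes at 0 was 34.6% ± 12.9 (SD, n = 4) in Tspan8hi and 79.3% ± 20.4 in Tspan8- libraries for H3K4me3. For H3K27me3 it was 54.1% ± 15.5 and 75.9% ± 3.51, and Lgr5-Tspan8hi replicate 1 was lowest for both marks (17.2% and 31.1%). Of 8 basal markers, 7 had H3K4me3 of 84.4 (Itgb4) to 168 CPM (Oxtr), with the keratins Krt5 and Krt14 at 139 and 130 CPM. Trp63 stood at 1.76 CPM. The region counted is not given, and a gene with several starts may not be counted at each. The low value of Trp63 thus need not mean that the mark was absent. Marker lists of other cells had medians of 2.20 (immune, 6 genes), 9.06 (endothelial, 6), 26.9 (fibroblast, 6) and 33.5 CPM (luminal, 8), and the luminal keratin Krt8 reached 107 CPM. In bulk chromatin, a mark on more of the cells and a denser mark on each cell cannot be told apart.

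The members' promoters differ in sequence. Of the 81 members, 61 had a window in the RefSeq promoter table (GRCm38.p6), which spans 250 bases before to 50 bases after a start. Where a gene had several windows, the one nearest its outer 5′ end was read. The 4 stretches that follow are shown because their genes had the highest H3K4me3 among members with a window and no coding gene start within 2 kb. They run 5′ to 3′ from 100 bases before to 20 bases after the start. Capitals mark CGGAAG (the core that ETS factors bind), AAGATGGC (the core of YY1 sites), GGGCGG (the GC box), TATAAA (the TATA box) and CTCTTT (a pyrimidine run), searched on both strands.
Rpl35, chr2:39005112-39005231, minus strand: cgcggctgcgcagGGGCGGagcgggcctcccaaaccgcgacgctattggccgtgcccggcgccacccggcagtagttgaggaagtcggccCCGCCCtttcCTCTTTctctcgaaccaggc
Rpl18, chr7:45717971-45718090, plus strand: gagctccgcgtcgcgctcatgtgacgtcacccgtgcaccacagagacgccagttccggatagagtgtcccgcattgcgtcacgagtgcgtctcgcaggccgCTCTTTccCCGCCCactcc
Rps12, chr10:23787190-23787309, minus strand: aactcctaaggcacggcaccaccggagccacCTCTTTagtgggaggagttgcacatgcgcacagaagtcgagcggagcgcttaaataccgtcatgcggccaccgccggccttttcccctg
Rpl13a, chr7:45128726-45128845, minus strand: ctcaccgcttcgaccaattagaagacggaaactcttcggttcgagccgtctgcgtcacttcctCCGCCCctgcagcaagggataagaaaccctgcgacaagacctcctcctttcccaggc

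The Rpl35 and Rpl18 stretches both hold a GC box (read as CCGCCC on the other strand) next to a pyrimidine run close to the start. The Rpl18 window lies 2604 bases inside the outermost annotated start of the gene, which overlaps Sphk2, and that of Rps27l lies 1462 bases inside. The next stretches set paralogs beside the standard genes they copy, since most of the paralogs had far less H3K4me3 than the other members. Rpl3 and Rpl32 are named only.
Rps27, chr3:90213629-90213748, minus strand: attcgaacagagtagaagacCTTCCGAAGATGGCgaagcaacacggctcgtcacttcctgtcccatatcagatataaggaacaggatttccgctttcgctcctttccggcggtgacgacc
Rps27l, chr9:66945986-66946105, plus strand: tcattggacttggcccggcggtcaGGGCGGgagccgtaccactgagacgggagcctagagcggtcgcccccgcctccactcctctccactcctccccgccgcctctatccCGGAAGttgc
Rpl39, chrX:37085203-37085322, minus strand: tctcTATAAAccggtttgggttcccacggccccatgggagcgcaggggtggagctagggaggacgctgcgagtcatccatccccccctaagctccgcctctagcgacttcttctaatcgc
Rpl39l, chr16:10170128-10170247, plus strand: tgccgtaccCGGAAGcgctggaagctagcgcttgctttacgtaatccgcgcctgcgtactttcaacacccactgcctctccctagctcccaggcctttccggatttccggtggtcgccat
Rpl10, chrX:74270716-74270835, plus strand: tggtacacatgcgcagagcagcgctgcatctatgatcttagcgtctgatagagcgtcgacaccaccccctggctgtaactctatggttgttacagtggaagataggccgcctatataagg
Rpl10l, chr12:66284382-66284501, minus strand: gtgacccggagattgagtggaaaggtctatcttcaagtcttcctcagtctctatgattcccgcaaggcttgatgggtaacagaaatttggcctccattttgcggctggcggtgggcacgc
Rpl3l, chr17:24727726-24727845, plus strand: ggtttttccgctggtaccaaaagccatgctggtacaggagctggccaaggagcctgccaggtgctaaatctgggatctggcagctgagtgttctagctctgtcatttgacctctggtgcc
Rpl32l, chr10:20208339-20208458, plus strand: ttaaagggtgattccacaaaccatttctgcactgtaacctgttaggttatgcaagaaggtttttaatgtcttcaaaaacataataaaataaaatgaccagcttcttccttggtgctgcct

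The Rpl3l, Rpl10l and Rpl32l stretches hold none of the searched motifs, and neither does that of Rpl10. Their full windows of 300 bases hold more. Rpl10 had an ETS core, a GC box and a pyrimidine run there, Rpl10l a GC box and Rpl32l a TATA box. The window of Rpl3l had none. Rps27 carries an ETS core directly before a YY1 core, and Rps27l carries an ETS core and a GC box. CpG pairs, the sites of DNA methylation in mammals, numbered 2 in the window of Rpl3l, 3 in Rpl32l, 13 in Rpl10l, 17 in Rpl39l and 24 in Rps27l. The autosomal members with a window had a median of 22 (8 to 35, n = 52) and all 18458 genes with a window a median of 13. Over the windows of 300 bases, the ETS core was in 36 of 52 autosomal members (69.2%), against 21.3% of all genes. The pyrimidine run was in 24 of them (46.2% against 21.9%), the GC box in 30 (57.7% against 46.0%), the YY1 core in 5 (9.62% against 3.19%) and the TATA box in 4 (7.69% against 13.1%). The ETS and YY1 cores can share the letters AAG, so those counts are not separate. A match describes letters, not binding.

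H3K4me3 counts behaved largely as reads around a gene start, although the region counted is not given. They are given as CPM, read counts scaled to library size with TMM factors. The autosomal members had a median of 92.1 CPM, 4.10 times the median of all genes (22.5 CPM), at the 89.1th percentile. All 72 lay above the median of all genes and 70 above the 75th percentile. Over the 11351 genes no longer than the longest member, the median was 4.25 CPM. Their levels were close to each other, with 65 of the 72 between 60 and 120 CPM, although the highest was 3.48 times the lowest. The large and small subunits without paralogs had like medians, 89.6 (n = 46) and 91.7 CPM (n = 30). Library medians over the autosomal members ran from 84.3 CPM in Lgr5-Tspan8- replicate 2 to 97.9 CPM in Lgr5+Tspan8- replicate 1, so libraries of the same sort differed as much as sorts did. Members held 0.711% ± 0.032 (SD, n = 8) of all H3K4me3 counts, 0.719% ± 0.019 in Tspan8hi and 0.704% ± 0.043 in Tspan8- libraries (n = 4 each).

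**Figure D1:**
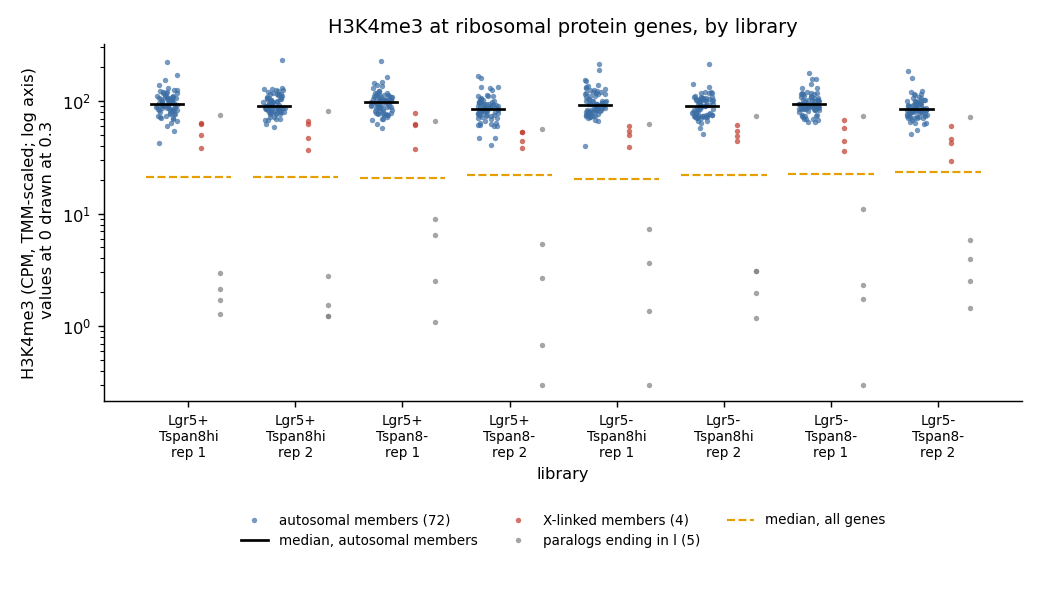
H3K4me3 (CPM, log axis) of every member in each of the 8 libraries. Blue points are the 72 autosomal members, whose medians (black bars) stay between 84.3 and 97.9 CPM, red points the 4 X-linked members and grey points the 5 paralogs. Orange dashes give the median of all genes, and values at 0 are drawn at 0.3.

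Among the proteins of the ribosomal stalk, which recruits elongation factors, Rplp0 had 75.4 CPM in its lowest library, a median of 85.8 and 94.6 CPM in its highest. Rplp1 ran from 71.7 over 83.9 to 89.5 CPM and Rplp2 from 70.8 over 77.0 to 92.8 CPM. The 3 stalk genes thus kept within a narrow band in all 8 libraries. Rpl5 and Rpl11, which carry the 5S rRNA into the ribosome, had lowest, median and highest values of 73.5, 87.4 and 97.5 CPM and of 70.8, 81.7 and 106 CPM. Rpl22, a gene needed in developing T cells, had 67.5, 80.9 and 98.5 CPM. Rpl38, whose loss alters the mouse skeleton, had 76.0, 88.7 and 100.1 CPM.

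In the small subunit, Rps6, the target of the S6 kinases, had 97.5, 105 and 130 CPM as lowest, median and highest. Rps19, the gene most often mutated in Diamond-Blackfan anaemia, had 86.9, 94.1 and 116 CPM. Rpsa, also known as a laminin receptor, had 70.2, 77.1 and 94.6 CPM. Rps27a, made as a fusion with ubiquitin, had 68.8, 95.3 and 112 CPM. Each of these genes lay above the median of all genes in every library.

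The highest members were Rpl7 (chromosome 1, 16101295 to 16104433) at 205 ± 24.6 CPM (SD, n = 8), Rpl7a (chromosome 2, 26910685 to 26913312) at 159 ± 17.8 CPM, Rpl35 at 132 ± 12.6 and Rpl18 at 131 ± 12.5 CPM. Rpl7 ran from 169 to 231 CPM and was the highest member in every library. Both Rpl7 and Rpl7a had a neighbour at a like level: Rdh10, whose start is 1449 bp from that of Rpl7, had 207 CPM, and Med22, 43 bp from Rpl7a, had 162 CPM. The lowest autosomal member was Rps29 (chromosome 12, 69157722 to 69159186) at 59.0 ± 9.48 CPM, from 39.8 to 70.0 CPM.

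Shared starts were common. Another gene start lay within 2 kb of 34 members, and for 18 of them it was a coding gene, on the opposite strand in 17. The shortest distances were 10 bp for Rps28 and Ndufa7, 43 bp for Rpl7a and Med22, 51 bp for Rpl37 and Card6 and 58 bp for Rpl12 and Lrsam1. Over the 15 coding pairs within 1 kb the neighbour had 1.01 times the member's H3K4me3 at the median, and 10 of them differed by at most 10%. Reads at such starts cannot be divided between both genes. In the other 5 the neighbour had fewer counts. Card6 had 0.42 times the level of Rpl37, Rab13 0.37 times that of Rps27 and Pidd1 0.40 times that of Rplp2. Micos13 had 0.70 times the level of Rpl36 and Rnf151 0.85 times that of Rps2. Starts as close as those of Rpl37 (51 bp), Rps27 (67 bp) and Rplp2 (86 bp) would share most reads in a window around each. The region counted is not given, so these lower counts need not mean less of the mark. Autosomal members with a coding start within 2 kb had a median of 102 CPM (n = 18), and those without one 88.6 CPM (n = 54). Inside members lay 32 small nucleolar RNA genes, which guide rRNA modification, in 22 host genes, and their median was 105 CPM. For the 22 of them with a start within 2 kb of the host's, the level was 0.83 to 1.14 times that of the host.

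**Figure D2:**
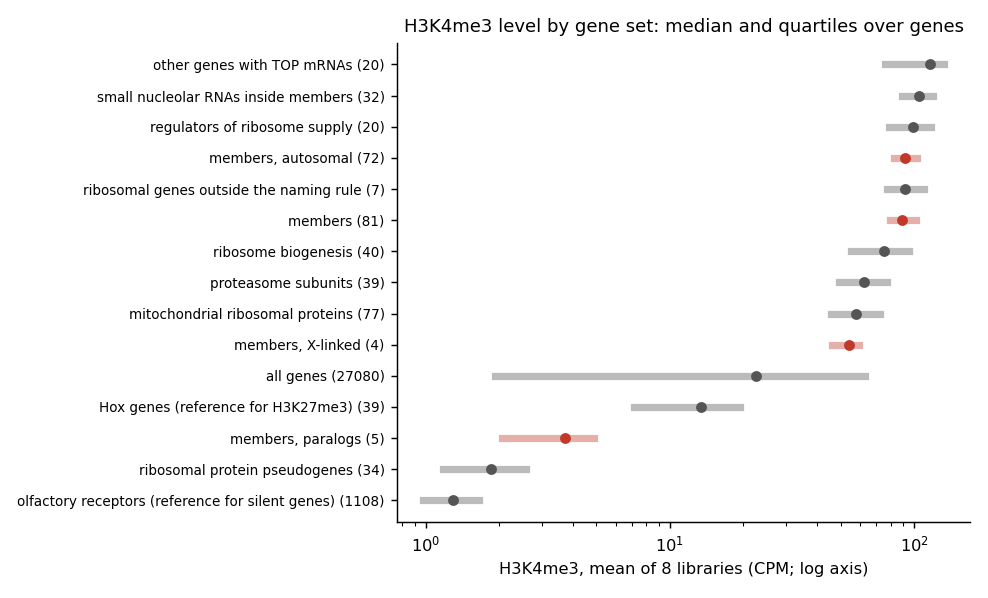
Median (point) and quartiles (bar) of H3K4me3 over the genes of each set, in CPM on a log axis, with the number of genes in parentheses. The autosomal members (92.1 CPM) stand above the proteasome (62.4) and mitochondrial ribosomal proteins (58.0) and below the other genes with pyrimidine starts (TOP mRNAs, 116), while the paralogs (3.74) lie below the median of all genes (22.5).

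Genes of related machinery gave a scale. The 77 mitochondrial ribosomal protein genes had a median of 58.0 CPM, the 39 proteasome genes 62.4 and 40 ribosome biogenesis genes 75.2 CPM. A list of 20 other genes whose transcripts are known for the pyrimidine start of ribosomal protein mRNAs (TOP mRNAs) had 116 CPM. It holds translation factors such as Eef1a1 and Eef2, but also Tpt1, Npm1, Hnrnpa1, Naca, Btf3 and the noncoding Gas5. The median of 20 regulators of ribosome supply was 98.4 CPM. Among 7 ribosomal genes outside the naming rule, the median was 91.7 CPM, with Rps3a1 at 91.7, Fau at 91.6 and Rack1 at 140 CPM. The 34 ribosomal protein pseudogenes had 1.85 CPM and 1108 olfactory receptor genes, silent outside the nose, 1.30 CPM.

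The paralogs did not share the level of the other members. Rpl10l (chromosome 12, 66283379 to 66284401), a testis copy of Rpl10, had 0.97 ± 0.84 CPM (SD, n = 8), from 24 reads in the 8 libraries together. Rpl39l (chromosome 16, 10170197 to 10174911), also a testis form, had 2.06 ± 0.74 CPM. Rpl3l (chromosome 17, 24727826 to 24736143), the form of heart and skeletal muscle, had 3.74 ± 2.48 CPM, and Rpl32l (chromosome 10, 20208439 to 20209030) had 4.88 ± 3.44 CPM. The 4 genes lay below the median of all genes in every library. Rps27l (chromosome 9, 66944624 to 66949522) differed from them with 70.3 ± 8.03 CPM, between 56.0 and 80.9 CPM, against 102 ± 13.2 CPM at Rps27.

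The X-linked members had less H3K4me3 than the autosomal ones. Rpl36a (134585654 to 134588062) had 37.5 ± 4.11 CPM (SD, n = 8), Rps4x (102184941 to 102189391) 49.2 ± 6.50, Rpl10 (74270816 to 74273135) 59.5 ± 10.3 and Rpl39 (37082518 to 37085222) 60.2 ± 4.75 CPM. Neighbours in this order differed by less than their spread for Rpl10 and Rpl39. Their median was 54.3 CPM, 0.59 times that of the autosomal members, and the ratio was 0.52 to 0.63 in each of the 8 libraries. Over coding genes with at least 30 CPM, 225 X-linked ones had a median of 40.9 CPM and 11179 autosomal ones 65.7 CPM, a ratio of 0.62. That cut is on the mark compared, and no such cut was made on the members, so 0.62 and 0.59 are not like measures.

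H3K27me3 counts grew with gene length and are given as CPM per kb of gene. Ribosomal protein genes are short, with a median of 3175 bp against 14513 bp over all genes, so few reads fell on them: an autosomal member had a median of 3 counts in a library, and 71 of the 81 members had a mean count under 10. Single autosomal values therefore carry large counting error. The autosomal members had a median of 0.235 CPM per kb, at the 18.7th percentile, and 71 of 72 lay below the median of all genes (0.601). Pooled over these 72 genes, the density was 0.273, 0.246, 0.239, 0.240, 0.275, 0.242, 0.244 and 0.213 CPM per kb in replicates 1 and 2 of Lgr5+Tspan8hi, Lgr5+Tspan8-, Lgr5-Tspan8hi and Lgr5-Tspan8-, in that order. The lowest pooled value had a 95% exact Poisson interval of 0.192 to 0.235 and the highest one of 0.237 to 0.317, which cover counting error only. These intervals take all reads as independent. The highest value was in Lgr5-Tspan8hi replicate 1, where effective depth was 31.1%, so its interval is likely too narrow. The replicates of a subpopulation differed about as much as subpopulations did.

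Other housekeeping sets had like medians: 0.245 CPM per kb in the mitochondrial ribosomal protein genes, 0.241 in the proteasome and 0.227 in ribosome biogenesis. The 39 Hox genes, a classic Polycomb target, had a median of 9.84 CPM per kb, 41.9 times that of the autosomal members. The least H3K27me3 was on Rpl36 (chromosome 17, 56610094 to 56614246) at 0.034 CPM per kb, from 6 reads in all libraries together, followed by Rpl41 (0.086, 4 reads), Rpl18 (0.098, 24 reads) and Rps2 (0.106, 18 reads).

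**Figure D3:**
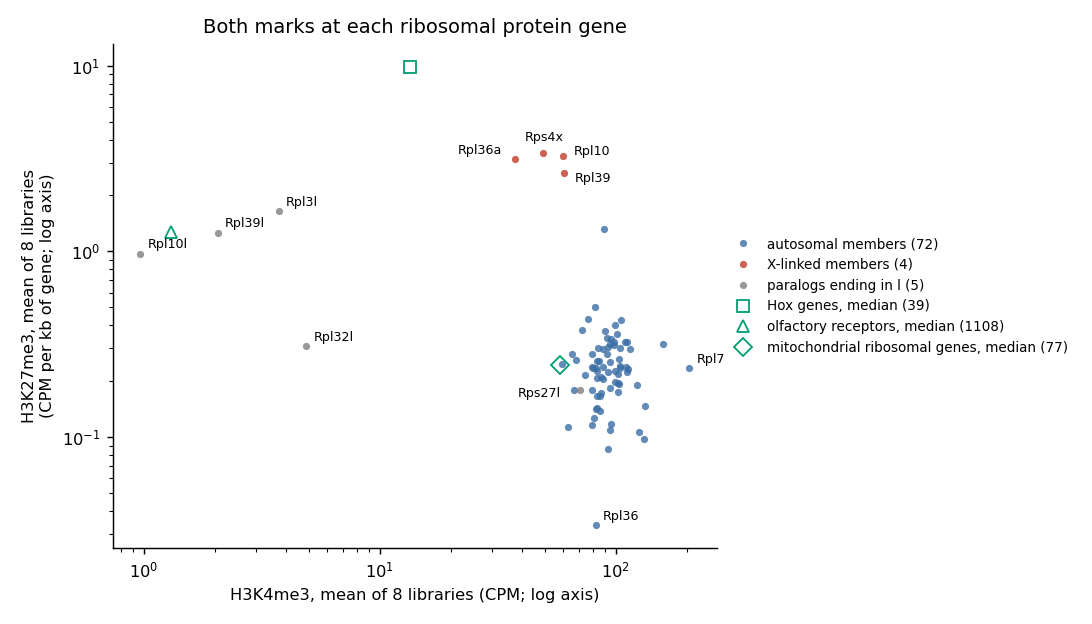
H3K4me3 (CPM) against H3K27me3 (CPM per kb of gene), each the mean of 8 libraries on a log axis, with one point per member and open green symbols for the medians of 3 reference sets. Most autosomal members form one cloud, the 4 X-linked members lie above it at 2.63 to 3.37 CPM per kb, and Rps27l is the only paralog inside it.

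The X-linked members formed a group of their own in this mark. Rpl39 had 2.63 ± 0.48 CPM per kb (SD, n = 8), Rpl36a 3.14 ± 0.88, Rpl10 3.24 ± 0.93 and Rps4x 3.37 ± 0.72, and these 4 could not be ordered beyond their spread. Their median of 3.19 was 13.6 times that of the autosomal members, at 10.4 to 25.9 times in single libraries. Autosomal medians in single libraries rest on few counts, and in Lgr5-Tspan8hi replicate 1 31 of the 72 genes were at 0. With reads pooled over the genes the ratio was 8.69 to 19.5 in single libraries. In Lgr5-Tspan8hi replicate 1 it was 10.8 pooled and 23.2 by medians. By the mean of 8 libraries no autosomal member reached the lowest X-linked one. Coding genes with at least 30 CPM of H3K4me3 gave 2.66 CPM per kb on the X (n = 225) and 0.279 on autosomes (n = 11179), a ratio of 9.53, so the members shared the difference with other X-linked genes. The counts do not separate both X chromosomes of a cell, and the part of the silenced copy was not tested.

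**Figure D4:**
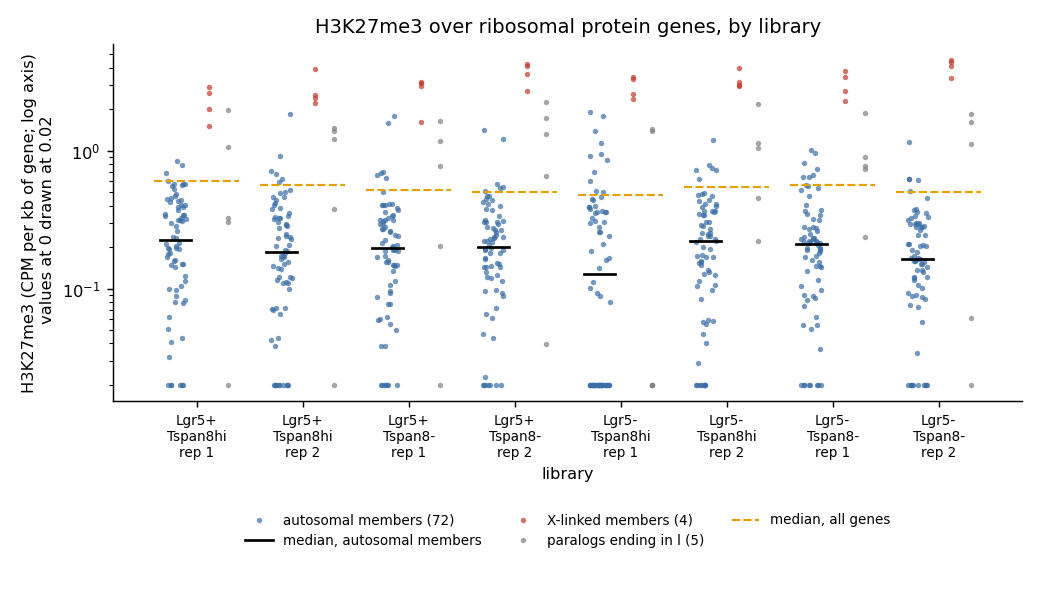
H3K27me3 (CPM per kb of gene, log axis) of every member in each of the 8 libraries, coloured as autosomal (blue, medians as black bars), X-linked (red) and paralogs (grey). Orange dashes give the median of all genes, and values at 0 are drawn at 0.02. The X-linked members stand above the autosomal median in all libraries, by 10.4 to 25.9 times at their median and 8.69 to 19.5 times with reads pooled.

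Of the paralogs, Rpl3l had 1.64 ± 0.35 CPM per kb (SD, n = 8), Rpl39l 1.26 ± 0.35 and Rpl10l 0.973 ± 0.756, which is in the range of the olfactory receptors (median 1.27). Their standard genes differed from them: Rpl3 had 0.241 ± 0.184 CPM per kb, while Rpl10 and Rpl39 carried the X-linked level. Rpl32l had 0.309 ± 0.439 from 8 reads, and Rps27l had 0.180 ± 0.135, close to 0.175 ± 0.233 at Rps27. Rpl3l, Rpl39l and Rpl10l thus had little of H3K4me3 and a middling density of H3K27me3.

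The tests asked whether any member differed between subpopulations. In H3K4me3, 79 of the 81 members passed the filter on low counts (Rpl10l and Rpl39l did not). None passed at an edgeR adjusted p under 0.05 in the test over any subpopulation, where 0.0894% of 19009 genes passed. None passed between Tspan8hi and Tspan8- (0.0473% of all genes), between Lgr5+ and Lgr5- (0.0421%) or in the interaction of both (0%). DESeq2 and limma-voom also called none of the members. At an unadjusted edgeR p under 0.05 there were 3, 4, 1 and 4 members in these 4 comparisons, and 5.27%, 5.9%, 4.98% and 4.2% of all genes. With so few genes called in all, a count of 0 of 79 is near the background share.

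For Tspan8hi minus Tspan8- the members' median log2 fold change was 0.02, with 47 of 79 above 0 (59.5%). Over all genes it was -0.00, with 49.6% above 0. At 50 to 150 CPM 60.3% of members and 57.8% of genes lay above 0. The 95% interval of the log2 fold change lay within ±0.5 for 69 of 79 members (87.3%) and for 47.2% of all genes. Among genes at 50 to 150 CPM it was 90.4% of 73 members and 81.9% of 8857 genes. For Lgr5+ minus Lgr5- the median was 0.03 with 50 of 79 above 0 (63.3%, against 50.8% of all genes). Here 71 intervals (89.9%) lay within ±0.5, against 47.9% of all genes. Among genes at 50 to 150 CPM the intervals of 91.8% of 73 members and 82.7% of 8857 genes did. Of these, 63.0% of members and 55.9% of genes had a fold change above 0. The interaction, a difference of differences, had a median of -0.01 and wider intervals, with 70 of 79 (88.6%) within ±1, against 49.2% of all genes. At 50 to 150 CPM 93.2% of 73 members and 84.8% of 8857 genes had intervals within ±1. All the X-linked members had intervals within ±1 for both averaged comparisons, as did 99.6% of 225 coding X-linked genes with at least 30 CPM in each.

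**Figure D5:**
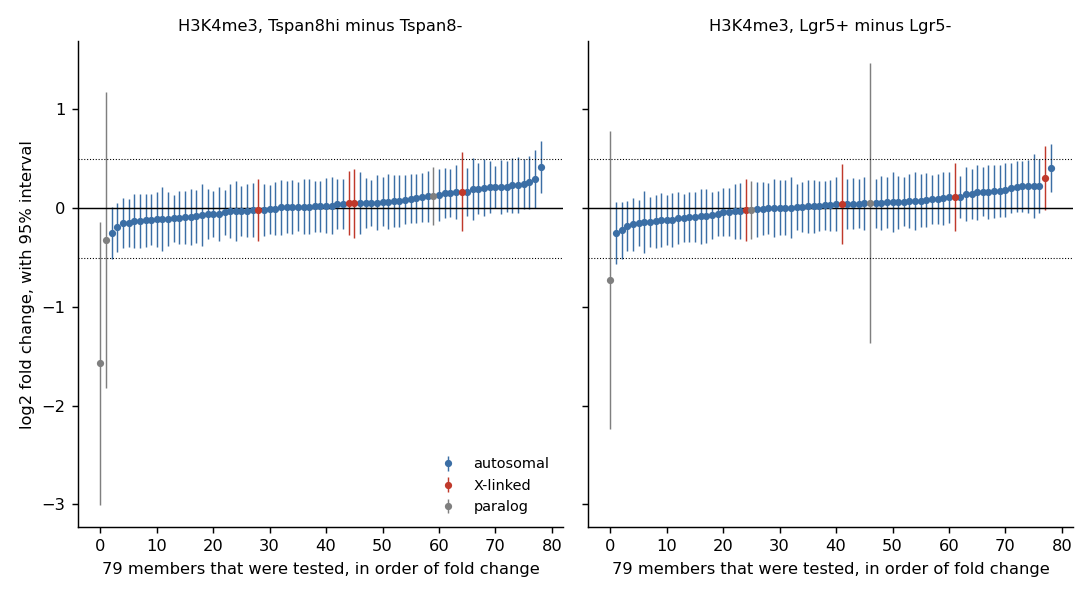
Log2 fold change of H3K4me3 with its 95% interval for the 79 members tested, in order of size, for Tspan8hi minus Tspan8- (left) and Lgr5+ minus Lgr5- (right). Dotted lines mark ±0.5, inside which 69 and 71 intervals lie, and the widest intervals belong to paralogs with few reads.

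The smallest p for Tspan8 belonged to Rpl41 (chromosome 10, 128548110 to 128549168), the shortest protein of the ribosome. It had 107 and 105 CPM in Lgr5+Tspan8hi and 115 and 95.9 CPM in Lgr5-Tspan8hi libraries. In Tspan8- libraries it had 86.2 and 76.2 (Lgr5+) and 83.7 and 70.4 CPM (Lgr5-). The groups did not overlap, but the log2 fold change of 0.42 ± 0.13 (SE) did not pass (edgeR adjusted p = 0.519). Rpl32l had 2.12, 2.79, 3.62 and 1.17 CPM in Tspan8hi and 9.02, 5.40, 10.97 and 3.96 CPM in Tspan8- libraries, which did not overlap either. Its log2 fold change was -1.57 ± 0.72 (edgeR adjusted p = 0.782), from 96 reads in all libraries. Rpl32l overlaps Map7, and the part of that gene in these reads was not tested. Rpl41 and Rpl32l were named for the smallest p, so groups without overlap add nothing to it. The share of all genes without such overlap was not counted. Rps24 and Rpl7 were the other members with an unadjusted p under 0.05 and had log2 fold changes of 0.30 ± 0.15 and 0.21 ± 0.11 (edgeR adjusted p = 0.838 for both).

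For Lgr5 the smallest p was at Rps12 (chromosome 10, 23785183 to 23787383), a small subunit protein. It had 156, 127, 145 and 133 CPM in Lgr5+ and 129, 92.8, 115 and 90.2 CPM in Lgr5- libraries. The lowest Lgr5+ value lay under the highest Lgr5- one, so the groups overlapped, with a difference of 0.41 ± 0.12 on the log2 scale (edgeR adjusted p = 0.654). Rpl10 came next with 64.0, 66.4, 78.3 and 52.6 CPM against 50.3, 61.2, 57.1 and 46.0 CPM, which overlapped, and its difference was 0.31 ± 0.16 (edgeR adjusted p = 0.971), or 0.13 without Lgr5+Tspan8- replicate 1.

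In the interaction the smallest p belonged to Rpl19 (chromosome 11, 98022003 to 98030493), a large subunit protein. The Rpl19 gene overlaps Cacnb1, whose start lies 1031 bp away, and the part of Cacnb1 in its reads was not tested. Among Lgr5+ cells, Rpl19 had 121 and 96.1 CPM in Tspan8hi libraries and 76.8 and 63.4 CPM in Tspan8- libraries. Among Lgr5- cells, the Tspan8hi libraries had 72 and 76.8 CPM and the Tspan8- libraries 86.6 and 92.5 CPM. The Tspan8hi libraries were thus the higher ones in Lgr5+ cells and the lower ones in Lgr5- cells, but the interaction of 0.88 ± 0.27 on the log2 scale did not pass (edgeR adjusted p = 1.00). Rps20 had 63.6 and 92.7 (Tspan8hi) against 97.8 and 99.2 CPM (Tspan8-) in Lgr5+ cells, and 100.5 and 76.0 against 68.7 and 68.1 CPM in Lgr5- cells. Its order was the opposite one (-0.69 ± 0.28, edgeR adjusted p = 1.00), with -0.43 when replicate 1 of Lgr5+Tspan8hi was left out. Rpl29 (0.64 ± 0.28) and Rps2 (-0.58 ± 0.24) were the other 2 with an unadjusted p under 0.05. Rpl19 and Rps12 also had the smallest p of the members over any subpopulation (edgeR adjusted p = 0.726 and 0.819).

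The spread between libraries bore on how small a difference could be seen. Within subpopulations the residual SD of log2 CPM had a median of 0.17 over the 79 members and 0.25 over all genes. At 50 to 150 CPM the medians were 0.17 (73 members) and 0.19 (8857 genes), so most of that difference went with the level. The range of the 4 subpopulation means was 0.26 on the log2 scale at the median, against 0.39 over all genes. It was under 1 for 77 of 79 members and for 16272 of 19009 genes. At 50 to 150 CPM it was under 1 for all 73 members and for 8845 of 8857 genes, with medians of 0.26 and 0.28. Rps6 (0.09) and Rpl31 (0.10) had the smallest residual SD, and Rpl3l (1.04) and Rpl32l (0.68) the largest. The biological coefficient of variation was 11.8% for the members and 15.1% for all genes at the median. At 50 to 150 CPM it was 11.7% and 12.4%.

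In H3K27me3 only 21 members passed the filter on low counts, 15 autosomal, the 4 X-linked, Rpl3l and Rpl39l. None passed an edgeR adjusted p under 0.05 over any subpopulation (0.529% of 22099 genes), for Tspan8hi minus Tspan8- (0.335%), for Lgr5+ minus Lgr5- (0.0407%) or in the interaction (0.00905%). DESeq2 and limma-voom called none either. At an unadjusted p under 0.05 there were 0, 0, 0 and 1 members, and 11.1%, 12.9%, 7.19% and 5.5% of all genes. The intervals were wide: that of the log2 fold change lay within ±0.5 for 0 of 21 members for Tspan8 and for 1, Rps3, for Lgr5. The SE of Rps3 was 0.16 there and 0.62 for Tspan8, and it is uncertain for Lgr5, since it was taken as a ratio at a fold change of -0.00. The numbers of genes called in all also moved with the libraries used: for Tspan8 there were 74, and 13 to 1240 with 1 library left out, the most without Lgr5-Tspan8- replicate 1.

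All 4 X-linked members had H3K27me3 log2 fold changes below 0 for Tspan8hi minus Tspan8-, from -0.54 to -0.17. Rpl36a had the smallest p: it had 1.51 and 2.55 (Lgr5+) and 3.43 and 2.94 CPM per kb (Lgr5-) in Tspan8hi and 3.12, 3.61, 3.44 and 4.54 CPM per kb in Tspan8- libraries. The groups overlapped, and its log2 fold change was -0.54 ± 0.28 (edgeR adjusted p = 0.424). Over 225 coding X-linked genes with at least 30 CPM of H3K4me3 the median was -0.30, with 12 above 0, against 0.09 over 10014 autosomal genes of that kind. The Hox genes had a median of -0.26, with 1 of 39 above 0. Effective depth was also lower in Tspan8hi libraries, and its part in these values was not tested. For Lgr5+ minus Lgr5- the 4 X-linked members had values from -0.45 to -0.11, and the coding X-linked genes a median of -0.08.

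Rpl13 (chromosome 8, 123102350 to 123105244) had 0.573, 0.707, 0.389 and 0.745 CPM per kb in Tspan8hi and 0.205, 0.267, 0.318 and 0.207 in Tspan8- libraries. The groups did not overlap, on 53 reads in all, and the log2 fold change of 1.30 ± 0.71 did not pass (edgeR adjusted p = 0.457). For Lgr5, Rpl38 had 0.440, 0.165, 0.263 and 0.428 against 0.000, 0.171, 0.051 and 0.133 CPM per kb, on 42 reads. The groups overlapped (1.60 ± 0.84, edgeR adjusted p = 0.736), and the value was 3.79 when replicate 2 of Lgr5-Tspan8hi was left out. Rps15a, the longest member at 11774 bp, had 0.422, 0.332, 0.336 and 0.394 against 0.255, 0.170, 0.196 and 0.280 CPM per kb. Its groups did not overlap, and its log2 fold change was 0.74 ± 0.40 (edgeR adjusted p = 0.750). Rpl13 and Rps15a were also named for a small p, so groups without overlap add nothing to it. In the interaction Rpl3 had -3.28 ± 1.43 (edgeR adjusted p = 0.879) and Rps19 2.50 ± 1.42 (edgeR adjusted p = 0.947), on 52 and 69 reads. The value of Rps19 was 3.96 and 1.44 when replicates 1 and 2 of Lgr5-Tspan8hi were left out in turn, and 1.32 when Lgr5-Tspan8- replicate 1 was. Rpl3 and Rpl36a had the smallest p over any subpopulation (edgeR adjusted p = 0.574 and 0.595). Residual SD on the log2 scale was smallest at Rpl39 (0.24) and Rpl3l (0.26), the latter with 577 reads, and largest at Rpsa (1.18) and Rpl4 (1.12), with 56 and 45 reads.

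None of the companion lists (mitochondrial ribosomal proteins, proteasome, ribosome biogenesis, other genes with TOP mRNAs, regulators of ribosome supply and ribosomal genes outside the rule) had a gene past the threshold in either mark or any comparison. Their H3K4me3 medians for Tspan8hi minus Tspan8- were 0.07, 0.06, 0.07, -0.01, 0.03 and -0.07 on the log2 scale, near that of the members. Of the marker lists of other cell types, Dcn, a fibroblast gene, was the gene that passed, with less H3K4me3 in Lgr5+ libraries (log2 fold change -1.52 ± 0.24, edgeR adjusted p = 0.000145).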

How the data were processed

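The authors deposited a raw read count per Entrez gene for each of the 16 libraries, without normalization. The submitters' processing notes name featureCounts and the build mm10. The aligner, the annotation and the region counted are each not given in the sources used here. Symbols, coordinates and lengths came from RefSeq (GRCm38.p6), which matched 25189 of 27080 genes. Each mark was fitted on its 8 libraries with edgeR 4.0.16 in R 4.3.3: filterByExpr on the subpopulation (19009 genes for H3K4me3, 22099 for H3K27me3), TMM factors, a mean for each subpopulation, the robust quasi-likelihood F test and Benjamini-Hochberg adjustment over all genes of a mark. Standard errors came from the F statistic. With 2 libraries per group 4 residual degrees of freedom remained. The fit was tested on simulated data.

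H3K4me3 counts correlated weakly with gene length over the members (Spearman's rho 0.08, a description over 81 genes) and H3K27me3 counts more (0.61). Over all genes rho was 0.35 and 0.80. H3K27me3 was divided by length and H3K4me3 was not, so the H3K4me3 rank of the members among all genes carries no length correction. Effective depth is the share of a library's total at which independent reads, drawn in proportion to the mean shares over the libraries, leave as many genes at 0. Members, lists, tests and the alternatives (DESeq2 1.42.0, voom of limma 3.58.1, other scalings, filters, the replicate block, each library left out) were chosen with earlier results of these data known. Genes were named by a rule: those with special roles, the paralogs and X-linked members, the 4 highest and 4 lowest in each mark, the 2 smallest p of each comparison, the 2 largest and 2 smallest spreads, and the closest shared starts. The promoters of Rps27, Rpl39 and Rpl10 and members named only for an unadjusted p were added after values were seen. Some genes are not reported here by name.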

Additional observations from a re-analysis of the deposited data

Results flagged for a closer look

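The pooled H3K27me3 density of the autosomal members was low in Lgr5-Tspan8- replicate 2, at 0.213 CPM per kb. The other 3 Tspan8- libraries lay between 0.239 and 0.244, so its distance to the nearest of them was 0.845 of the range, above the limit of 0.829 for 4 libraries. In all, 24 groups of 4 libraries were examined, and chance alone marks about 1 in 20.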

How the results depend on the processing

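Of the 128 alternatives run (16 for each mark and comparison), those that used all 8 libraries of a mark called no member. The most genes called in these were 30 of 19009 for H3K4me3 (limma-voom, any subpopulation), with 0 of 79 members. For H3K27me3 they were 678 of 22099 (replicate block, Tspan8), with 0 of 21 members. At such shares a count of 0 is near the background. The 186 values for named genes kept their direction. Those of Rpl10, Rps20, Rpl38 and Rps19 moved by over 1.5 times with 1 library left out, as given beside them. Leaving out one library at a time gave H3K4me3 member medians of -0.03 to 0.09 for Tspan8, -0.05 to 0.07 for Lgr5 and -0.10 to 0.13 for the interaction (0.13 without Lgr5+Tspan8- replicate 1). The H3K27me3 medians were less steady, and the filter then let 36 to 44 members through in place of 21: -0.13 to 0.29 for Tspan8 (0.29 without Lgr5+Tspan8- replicate 2; leaving out Lgr5-Tspan8hi replicate 2 gave 0.19), -0.20 to 0.18 for Lgr5 (0.18 without Lgr5-Tspan8hi replicate 1, 0.15 without Lgr5-Tspan8- replicate 1) and -0.52 to 0.068 for the interaction (0.068 without Lgr5+Tspan8- replicate 2; leaving out replicates 1 and 2 of Lgr5-Tspan8hi gave -0.070 and -0.10), against -0.10, -0.11 and -0.38 with all libraries. Over the same 21 members the ranges were -0.21 to 0.045, -0.20 to 0.005 and -0.46 to 0.093 (a setting chosen after seeing the data). Without a filter, over all 81 members, the H3K27me3 medians were -0.009, 0.08 and -0.14. Calls over all genes, which set the background shares, ran over the alternatives from 3 to 97 (any subpopulation), 1 to 105 (Tspan8), 1 to 14 (Lgr5) and 0 to 15 (interaction) for H3K4me3 and from 38 to 979, 13 to 1240, 3 to 165 and 0 to 109 for H3K27me3. For H3K27me3 and Tspan8 there were 476 with DESeq2, 294 with limma-voom and 678 with the replicate block, and for H3K4me3 and Tspan8 105 without Lgr5-Tspan8hi replicate 2. By construction the level depended on the unit: 27.8 for H3K4me3 per kb of gene, 0.870 for H3K27me3 not divided by length, and a member share of H3K27me3 counts of 0.0058% in place of 0.0123% over genes with at least 5 CPM. Without members that share a coding start the H3K4me3 median was 88.6 CPM, and without overlapped members the H3K27me3 median was 0.237 CPM per kb, both settings chosen after seeing the data. Replicate numbers were shared by the subpopulations, and the labels do not say whether they pair samples. Deviations of same-numbered libraries correlated at -0.03 to 0.14 (H3K4me3) and -0.01 to 0.12 (H3K27me3). Counting error lowers such correlations, so they cannot decide whether the numbers pair samples. With the replicate block the medians were 0.02, 0.03 and -0.00 for H3K4me3 and -0.16, -0.15 and -0.38 for H3K27me3 and 0 members were called. Low H3K27me3 counts limit what can be said of single autosomal members.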
